A study of Ovis aries with 15 samples.

Results

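The nuclear genes for subunits of respiratory complexes II to V were examined in ovine longissimus dorsi (LD) muscle, a back muscle with postural and locomotory roles. Members were the probe sets whose only annotated symbol was SDHA, SDHB, SDHC, SDHD or CYC1, or began with UQCR, COX4 to COX8 or ATP5. Of 24016 probe sets, controls left out, 53 met this rule, and where a gene had several, the one whose log2 signal averaged highest across the 15 arrays stood for it. This gave 43 genes, with 4 in complex II, 9 in complex III, 13 in complex IV and 17 in complex V. The rule used symbols and mean signals and no change between stages. COX4I2, COX6B1, COX7B and COX8C, and the subunits encoded in mitochondrial DNA, were not analysed here.

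LD muscle came from Dorset/Suffolk/Rambouillet cross-bred lambs at 5 stages, with 3 animals and 3 arrays per stage. The fetal stages were 80, 100 and 120 days (d) of gestation, the newborn stage (150 d of development) was sampled 1 to 3 days after birth, and the young lambs (230 d of development) were 12 weeks old. Every stage used its own animals, all untreated, and per the study's methods all were male apart from a female at 100 d and another at 120 d. Ovine RNA was hybridised to a bovine Affymetrix array, so a probe set measures a sheep transcript only as far as the bovine probes match it, and the heights of different probe sets are no measure of their relative transcript levels.

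Complex II (succinate dehydrogenase) passes electrons from succinate to ubiquinone, complex III (the cytochrome bc1 complex) passes them on to cytochrome c, and complex IV (cytochrome c oxidase, COX) hands them to oxygen. Complexes III and IV pump protons out of the mitochondrial matrix, and complex V (ATP synthase) lets them return through a rotating ring to make ATP. Several complex IV subunits exist as a heart and muscle isoform and a more widely expressed liver isoform, encoded by separate genes.

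The deposited signals had been scaled to a common trimmed mean, so the overall brightness of the arrays was made alike and is no check of them. On this scale the median signal was 51.4 to 69.4, and 50.7 to 58.1% of probe sets were at a signal of 50 or more. The spiked hybridisation controls were not alike, at 677 to 993 on the fetal and 1139 to 1794 on the postnatal arrays. All 43 members passed the filter on low signals (at least 50 on at least 3 arrays), as did 15998 of the 24016 probe sets. COX6B2 was at 50 or more on 12 arrays. Skeletal muscle markers summed to 59610 to 79973 at 80 d and to 145339 to 211189 at 230 d, and heart markers never summed to more than 451. In bulk muscle, fewer cells of a type and less RNA per cell cannot be told apart. The actin 3′ to 5′ signal ratio, a measure of RNA integrity, was 1.66 to 2.21 at 80 d, 1.27 to 1.73 at 100 d and 0.933 to 1.14 at 120 d. It was 0.852 to 0.953 at 150 d and 0.937 to 1.04 at 230 d. The same ratio for GAPDH, another control transcript, was 0.990 to 1.22 at 80 d and 0.990 to 1.34 over all arrays. The part of RNA integrity in the changes reported here was not tested.

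The subunit genes took up a larger share of the array signal after birth. Summed over the 43 members, the signal was 1.77 to 1.90% of the total of all probe sets at 80 d, 1.84 to 1.94% at 100 d and 2.23 to 2.68% at 120 d. It was 4.46 to 5.18% at 150 d and 4.14 to 4.88% at 230 d. All 6 postnatal arrays thus lay above all 9 fetal arrays in this share, which does not depend on how an array is scaled.

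The same separation held for most single genes. In 36 of the 43 members all 6 postnatal arrays lay above all 9 fetal arrays, and in 1 (COX6A1) all lay below, against 6.78% of all kept probe sets above and 10.5% below. By mean log2 signal 37 of the 43 members were among the brightest 5% of kept probe sets. Shares among probe sets of like brightness were not computed, here or below. The genes that separated upwards were 4 of 4 in complex II, 7 of 9 in complex III, 8 of 13 in complex IV and 17 of 17 in complex V. COX6A2, COX7A2, COX7A2L, COX8A, UQCRH and UQCRQ overlapped.

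**Figure D1:**
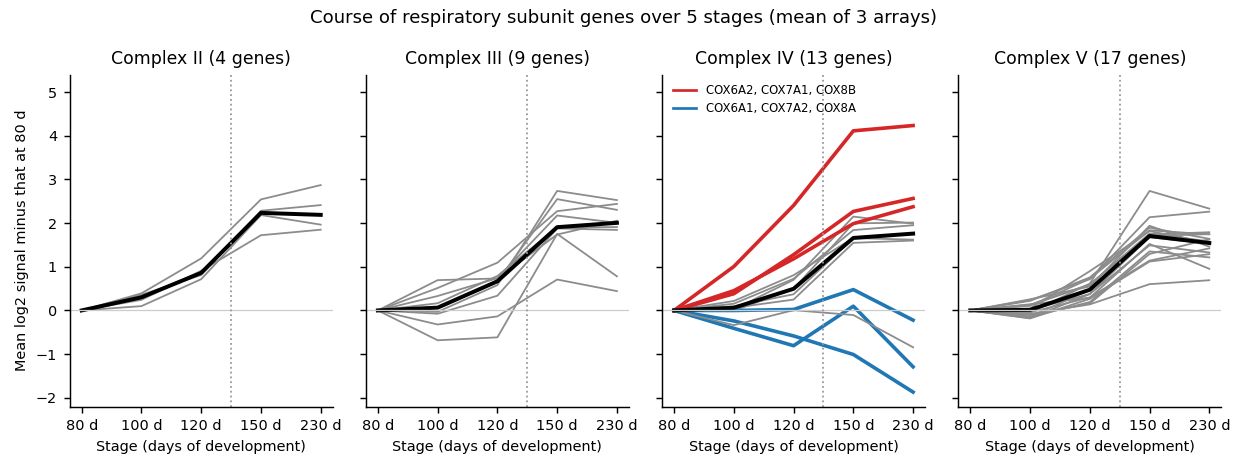
Mean log2 signal of each of the 43 subunit genes at the 5 stages, minus its own mean at 80 d (3 arrays per stage), in a panel per complex, with the median of the panel in black and birth as a dotted line. Between 120 d and 150 d 41 of the 43 lines go up. In complex IV the liver isoforms (blue) part from the heart and muscle isoforms (red) from 80 d on, and COX7A2 and COX8A go up between 120 d and 150 d. Each line shows the brightest probe set of its gene. The dimmer COX6A1 probe set, not drawn, had mean signals of 37.5 (80 d), 155 (120 d) and 570 (230 d). The dimmer COX8B probe set had 358 (80 d) and 374 (120 d).

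Between 120 d and 150 d, the interval that spans birth, subunit genes of every complex rose. Of the 43 members 31 rose and none fell at an adjusted p below 0.01 in limma, where 4.41% of all kept probe sets rose and 6.77% fell. The median change of the members was 2.23-fold (1.16 on the log2 scale), while the median over all kept probe sets was -0.15. By complex, 4 of 4 subunits of complex II rose (median 1.41), 7 of 9 of complex III (median 1.43), 6 of 13 of complex IV (median 0.99) and 14 of 17 of complex V (median 1.15). The differences between complexes were not tested. In 39 members the 3 newborn arrays lay above all 3 arrays of 120 d, against 14.3% of all kept probe sets, and COX6A1 lay below, against 22.9%.

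The number of calls depended on the scaling. With all arrays brought to the level of the spiked hybridisation controls, which measured 677 to 993 on the fetal and 1139 to 1794 on the postnatal arrays, 5 members rose (UQCRC1, UQCRQ, CYC1, COX7A1 and ATP5MC1) and 1 fell, where 0.963% of probe sets rose and 23.6% fell, the median of all probe sets was -0.81 and that of the members 0.50, with 39 of the 43 above 0. With quantile normalization 14 members rose, against 4.51% of probe sets, and 40 were above 0. With the 6 arrays of the interval fitted alone none passed, against 0.0125% of probe sets, although 39 had an unadjusted p below 0.05.

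**Figure D2:**
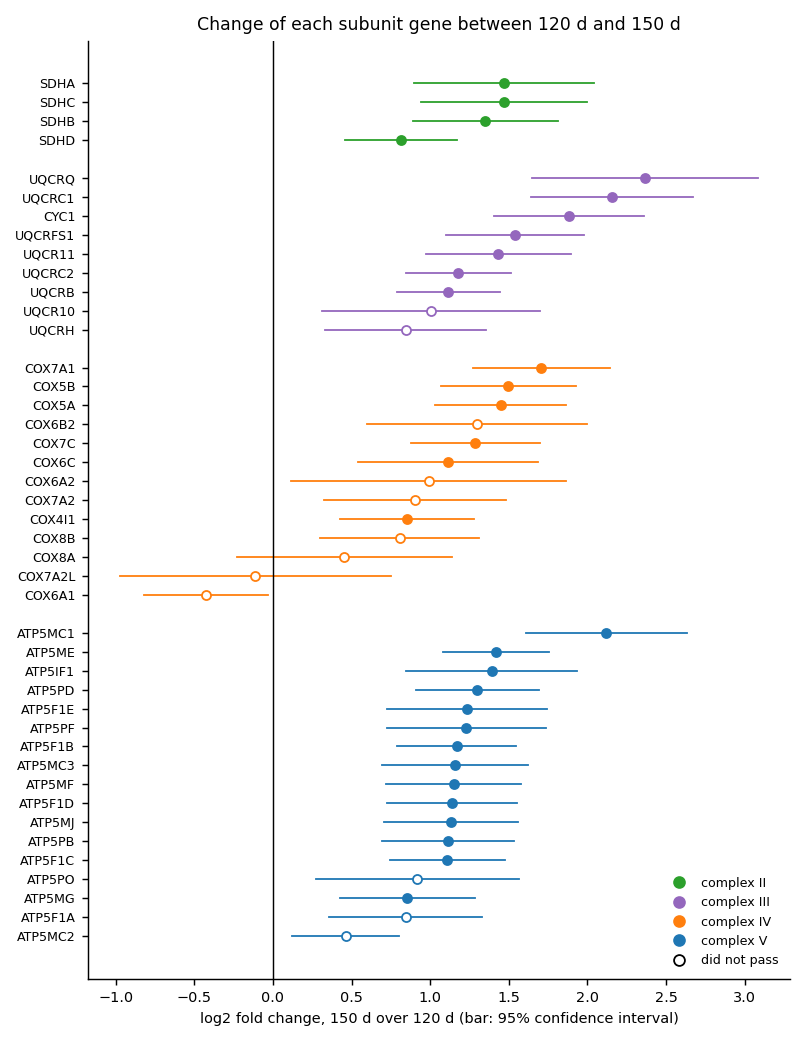
Log2 fold change from 120 d to 150 d of each of the 43 subunit genes with its 95% confidence interval from limma, sorted within complex (colours). Filled points passed at an adjusted p below 0.01 (31 genes), and only COX6A1 and COX7A2L lie below 0.

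Before birth the genes moved less. From 80 d to 100 d none of the 43 passed in limma (0.106% of probe sets rose and 0.0188% fell), 3 had an unadjusted p below 0.05 and the median change was 0.06. The 3 arrays of 100 d lay above all 3 of 80 d in 8 members and below in 2, against 10.1% and 8.96% of probe sets. From 100 d to 120 d again none passed (0.0375% rose and 0.0188% fell), but 23 had an unadjusted p below 0.05, the median was 0.48 and 41 of the 43 estimates were above 0. The 3 arrays of 120 d lay above all 3 of 100 d in 24 members, against 6.88% of probe sets, and below in 2, against 9.09%. With limma's trend and robust options 1 member passed in each of these intervals, against 0.244% and 0.206% of probe sets. Over the whole fetal span, 80 d to 120 d, 4 members rose (COX7A1, SDHB, UQCRC2 and SDHD) and none fell, where 0.931% of probe sets rose and 0.381% fell. The arrays of 120 d lay above those of 80 d in 26 members and below in 2, against 12.5% and 14.2% of probe sets. With the trend and robust options 10 rose, against 1.79% of probe sets. When 1 array was left out the count ran from 1 to 5, against 0.613 to 1.48% of probe sets. It was 1 without the second or the third array of 80 d or the first or second of 120 d. It was 2 without the first of 80 d, the second or the third of 100 d or the third of 120 d. It was also 2 without the third of 150 d or the first or the third of 230 d.

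After birth the estimates of most genes lay near 0 in both directions. From 150 d to 230 d no member rose and 1 (COX7A2) fell, against 0.944% and 1.08% of probe sets, and 5 had an unadjusted p below 0.05. The median change was -0.04, with 20 of the 43 above 0. The arrays of 230 d lay above those of 150 d in 1 member and below in 5, against 14.0% and 9.93% of probe sets. From 120 d to 230 d, a comparison that shares its fetal arrays with the one across birth, 33 members rose and 1 (COX6A1) fell, where 5.79% of probe sets rose and 8.41% fell. In 37 members the arrays of the 2 stages did not overlap and 230 d was higher, against 18.9% of probe sets, and in 1 it was lower, against 22.9%. By complex the risers were 4 of 4, 8 of 9, 8 of 13 and 13 of 17, in the order II to V. Without the third array of 120 d 21 rose and 1 fell, where 3.46% of probe sets rose and 4.83% fell. Scaled to the hybridisation controls, 1 member rose over this span and 4 fell, where 0.813% of probe sets rose and 36.0% fell.

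Succinate dehydrogenase has a catalytic head of SDHA and SDHB that 2 membrane anchors, SDHC and SDHD, tie to the inner membrane. SDHA, the flavoprotein that oxidises succinate, had signals of 1223, 802 and 965 (80 d), 1686, 1072 and 1104 (100 d), 2122, 1614 and 1493 (120 d), 6338, 4995 and 3444 (150 d) and 5379.5, 5110 and 5186 (230 d). The newborn arrays lay well above those of 120 d, and the level at 230 d was within the newborn range. SDHA rose 2.77-fold across birth, a log2 fold change of 1.47 ± 0.26 (± the standard error of the fit, n = 3 arrays per stage, limma adjusted p = 0.00198), and did not pass without the third array of 120 d (adjusted p = 0.0115). SDHB, the iron-sulfur protein that carries electrons to ubiquinone, measured 1837, 1522 and 1592 (80 d), 2615, 1959 and 1959 (100 d), 4561, 3579 and 3246 (120 d), 11139.6, 7442 and 10595 (150 d) and 11207, 11487 and 13485 (230 d). Each fetal stage lay above the one before it without overlap, and all 3 newborn arrays lay above the fetal ones. SDHB rose by 1.19 ± 0.21 on the log2 scale from 80 d to 120 d (adjusted p = 0.00811) and by 1.35 ± 0.21 across birth (adjusted p = 0.000926). The fetal rise passed in 3 of the 15 fits that left out 1 array, with an adjusted p of up to 0.0421 in the others.

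SDHC, an anchor that helps to bind ubiquinone and heme, measured 1226, 977 and 949 (80 d), 1292, 1085 and 995 (100 d), 1827, 1768 and 1555 (120 d), 6577, 4486 and 3607 (150 d) and 3270.4, 3970 and 5193 (230 d). The 120 d arrays lay above all earlier ones, and every postnatal array was above those. Its change across birth was 1.47 ± 0.24 on the log2 scale (adjusted p = 0.0013). SDHD, the other anchor, had signals of 1781, 2309 and 2059.7 (80 d), 2304, 2428 and 2509 (100 d), 3361, 3861 and 4313 (120 d), 6302, 7203 and 6692 (150 d) and 6978, 7910 and 7163 (230 d). No array of 150 d or 230 d overlapped a fetal array. SDHD rose by 0.91 ± 0.16 from 80 d to 120 d (adjusted p = 0.00878) and by 0.81 ± 0.16 across birth (adjusted p = 0.00396), the smallest birth change of the 4 subunits. The fetal call of SDHD held in 1 of the 15 fits that left out 1 array, with an adjusted p of up to 0.0421 in the others, and the birth call was lost without the first or second array of 120 d or the second or the third of 150 d (adjusted p 0.011 to 0.0177). From 150 d to 230 d none of the 4 passed in limma, and their estimates ran from -0.22 to 0.33.

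In complex III the catalytic subunits encoded in the nucleus are cytochrome c1 and the Rieske protein. CYC1 (cytochrome c1, which donates electrons to cytochrome c) measured 3240.3, 2647 and 2484 (80 d), 3444, 2683 and 2631 (100 d), 5097, 4878 and 3433 (120 d), 18209.8, 13877 and 16866 (150 d) and 12152, 12461 and 16883 (230 d). Its postnatal arrays were all more than 2 times the brightest fetal array, and the 120 d arrays lay above those of 80 d. CYC1 rose 3.68-fold across birth (1.88 ± 0.22 on the log2 scale, adjusted p = 0.000155) and the 230 d estimate was -0.25 ± 0.22 from the newborn level (adjusted p = 0.544). UQCRFS1 (the Rieske iron-sulfur protein) had signals of 4017, 4007 and 4286 (80 d), 3981, 4158 and 3562 (100 d), 6142, 5603 and 4039 (120 d), 16723, 14011 and 14597 (150 d) and 12288, 14074 and 18423 (230 d). Fetal levels overlapped at all 3 stages, and the postnatal arrays lay apart. It rose by 1.54 ± 0.20 across birth (adjusted p = 0.000323).

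The core proteins face the matrix. UQCRC1 measured 2016, 1566 and 1666 (80 d), 2296, 1518 and 1411 (100 d), 3115, 2829 and 1992 (120 d), 13714, 10477 and 10829.6 (150 d) and 9423, 9318 and 11443 (230 d). Newborn arrays were far above every fetal array, and those of 230 d overlapped them. UQCRC1 rose 4.46-fold (2.16 ± 0.24 on the log2 scale, adjusted p = 0.000105), the second largest birth change among the 43 members. A much dimmer UQCRC1 probe set, at 29.7 ± 17.4 (120 d) and 44.7 ± 11.8 (150 d), had an estimate of 0.80 (adjusted p = 0.493). UQCRC2, its partner, had signals of 982, 918 and 952 (80 d), 1324, 1363 and 1381 (100 d), 2201, 2104 and 1796 (120 d), 5287, 4366 and 4185 (150 d) and 5211, 5353 and 4895 (230 d). No array of 80 d reached one of 100 d, and none of 100 d one of 120 d. UQCRC2 rose by 1.09 ± 0.15 over the fetal span (adjusted p = 0.00181) and by 1.18 ± 0.15 across birth (adjusted p = 0.000323). The fetal call was lost without the second or the third array of 80 d or the first or second of 120 d (adjusted p 0.0105 to 0.0123), and a dimmer UQCRC2 probe set, at 145 to 151 on average at 80 d and 120 d, had estimates of -0.07 for the fetal span, 0.34 across birth (adjusted p = 0.376) and 0.0055 from 120 d to 230 d (adjusted p = 0.99), so both UQCRC2 calls rest on the brighter probe set.

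The remaining complex III subunits carry no redox centre. UQCRQ, a small subunit, had signals of 317, 130.1 and 203 (80 d), 115, 147 and 119 (100 d), 119, 155 and 126 (120 d), 712, 548 and 818 (150 d) and 238, 514 and 347 (230 d). The newborn arrays were above all others, by a small margin over the second array of 230 d, and the 230 d arrays overlapped those of 80 d. UQCRQ had the largest birth change of the 43 genes, 5.16-fold (2.37 ± 0.33 on the log2 scale, adjusted p = 0.000458), and its estimate from 150 d to 230 d was -0.97 ± 0.33 (adjusted p = 0.105), without overlap of those 2 stages. From 120 d to 230 d it rose by 1.40 ± 0.33 (adjusted p = 0.00831), a call held in 4 of the 15 fits that left out 1 array. UQCRB, which lies near the ubiquinone site, measured 6708, 6643 and 6761 (80 d), 7412, 7937 and 7213 (100 d), 11686, 12617 and 10544 (120 d), 27026, 22550 and 26012 (150 d) and 25221, 23519.5 and 26828 (230 d). Replicates were close together at every stage and no 2 neighbouring fetal stages overlapped. It rose by 1.12 ± 0.15 across birth (adjusted p = 0.000351), and its fetal change of 0.79 ± 0.15 lay just outside the threshold (adjusted p = 0.0118).

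UQCR11 measured 1524, 2125 and 1776 (80 d), 1916, 2704 and 2204 (100 d), 2306, 3665 and 3160.4 (120 d), 8736, 7347 and 8211 (150 d) and 6712, 7229 and 7665 (230 d). Levels at 150 d were more than 2 times the brightest 120 d array, and UQCR11 rose by 1.43 ± 0.21 (adjusted p = 0.000625). UQCR10 measured 672, 618 and 655 (80 d), 1325, 845 and 1027 (100 d), 1449.5, 1343 and 639.7 (120 d), 2184, 2666 and 1733 (150 d) and 2508, 3691 and 2103 (230 d). The third array of 120 d lay at the 80 d level while the other two lay above the 100 d arrays. UQCR10 had a birth estimate of 1.01 ± 0.32 (adjusted p = 0.0396) and rose by 1.32 ± 0.32 from 120 d to 230 d (adjusted p = 0.00918), a call held in 1 of the 15 fits that left out 1 array. UQCRH, the hinge protein beside cytochrome c1, had signals of 8262, 6745 and 7520.3 (80 d), 5610, 6176 and 6193 (100 d), 7869.8, 7356 and 5456 (120 d), 13311, 12217 and 11223 (150 d) and 10722, 7065 and 13878 (230 d). The second array of 230 d fell within the fetal range, and no interval passed for UQCRH (120 d to 150 d 0.84 ± 0.24, adjusted p = 0.0223).

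Complex IV had the lowest share of calls across birth, and its isoforms took different courses. The COX7A subunit has a heart and muscle isoform, COX7A1, and a liver isoform, COX7A2. COX7A1 measured 554, 525 and 624 (80 d), 956, 1214 and 1262 (100 d), 2622, 3681 and 2780 (120 d), 11752, 8074 and 9859.8 (150 d) and 9742, 11051 and 11185 (230 d). Each stage up to 150 d lay above the one before without overlap, and the 2 postnatal stages overlapped. COX7A1 rose 5.29-fold from 80 d to 120 d (2.40 ± 0.20 on the log2 scale, adjusted p = 3.58e-05), the largest fetal change of the 43 genes, and 3.27-fold across birth (1.71 ± 0.20, adjusted p = 0.000157). Both calls held in all 15 fits that left out 1 array. COX7A2 measured 1808, 2068 and 2572 (80 d), 1448, 1645 and 1723 (100 d), 1176, 1389.7 and 1098 (120 d), 2342, 3219.7 and 1562 (150 d) and 1139, 804 and 717 (230 d). It was lower at 120 d than at 80 d without overlap, higher on the newborn arrays and lowest at 230 d, where the brightest array lay within the 120 d range. The estimates for COX7A2 were -0.81 ± 0.27 over the fetal span (adjusted p = 0.127) and 0.90 ± 0.27 across birth (adjusted p = 0.0284), neither of which passed. It fell by 1.39 on the log2 scale from 150 d to 230 d (standard error 0.27, adjusted p = 0.00942), a call held in 1 of the 15 fits that left out 1 array.

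COX7A2L, a related protein known for joining complexes III and IV into supercomplexes, measured 545, 1112 and 1171 (80 d), 782, 754 and 597 (100 d), 635, 1195 and 948 (120 d), 1430.1, 629.5 and 633 (150 d) and 546, 344 and 654 (230 d). The stages overlapped throughout and no interval passed. Its estimates were -0.11 ± 0.40 across birth (adjusted p = 0.872) and -0.85 ± 0.40 from 120 d to 230 d (adjusted p = 0.135).

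The COX6A subunit likewise has a muscle and a liver isoform. COX6A2, the heart and muscle isoform, measured 1229, 705 and 668 (80 d), 1108, 815 and 1419 (100 d), 3274, 1597 and 1571 (120 d), 6025, 2877 and 3714 (150 d) and 6403, 3131 and 5959 (230 d). The first array was the brightest of its stage at 80 d, 120 d, 150 d and 230 d, and the 120 d and 150 d arrays overlapped. COX6A2 passed in no interval, with 1.28 ± 0.40 over the fetal span (adjusted p = 0.111), 0.99 ± 0.40 across birth (adjusted p = 0.0994) and 1.29 ± 0.40 from 120 d to 230 d (adjusted p = 0.0325). COX6A1, the liver isoform, measured 3109, 3299 and 3465 (80 d), 3153, 2807 and 2438 (100 d), 2260.2, 2201 and 2122 (120 d), 1786, 1878 and 1301 (150 d) and 827, 869 and 1015 (230 d) with its brighter probe set. At 120 d, 150 d and 230 d the arrays lay below those of the stage before without overlap. COX6A1 fell by 1.29 on the log2 scale from 120 d to 230 d (standard error 0.18, adjusted p = 0.000339), and its estimate from 150 d to 230 d was -0.86 ± 0.18 (adjusted p = 0.0155).

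The array held a second COX6A1 probe set, and it ran the other way. Its signal averaged 37.5 ± 25.2 (80 d, SD, n = 3), 82.2 ± 16.8 (100 d) and 155 ± 34.5 (120 d) in the fetus. It then reached 311 ± 70.8 (150 d) and 569.8 ± 37.5 (230 d), an estimate of 1.90 from 120 d to 230 d that did not pass (adjusted p = 0.0127). The brighter probe set is one the maker marks as sharing probes with other transcripts. The 2 probe sets therefore give opposite directions for COX6A1, and which of them follows the sheep transcript was not tested.

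Among the COX8 genes COX8B is the heart and muscle isoform. COX8B measured 497, 457 and 535 (80 d), 732, 679 and 626 (100 d), 1122, 1098 and 1150.3 (120 d), 2628, 1462 and 1971 (150 d) and 2236, 3469 and 2182 (230 d). The 3 fetal stages stepped up without overlap, and every postnatal array was above them. It rose by 1.19 ± 0.23 from 120 d to 230 d (adjusted p = 0.00269), a call lost without the second array of either stage (adjusted p = 0.011 and 0.0113), with an estimate of 0.81 ± 0.23 across birth (adjusted p = 0.0257). A dimmer COX8B probe set averaged 374 ± 129 at 120 d, 379 ± 69.4 at 150 d and 604 ± 83.4 at 230 d, with an estimate of 0.06 across birth. COX8A, the liver isoform, measured 2344, 1653 and 1612 (80 d), 2466, 1757 and 1438 (100 d), 1706, 2239 and 1710.3 (120 d), 3782, 2822 and 1577 (150 d) and 1818, 1284 and 1686 (230 d). All stages overlapped and no interval passed for COX8A (across birth 0.46 ± 0.32, adjusted p = 0.338).

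**Figure D3:**
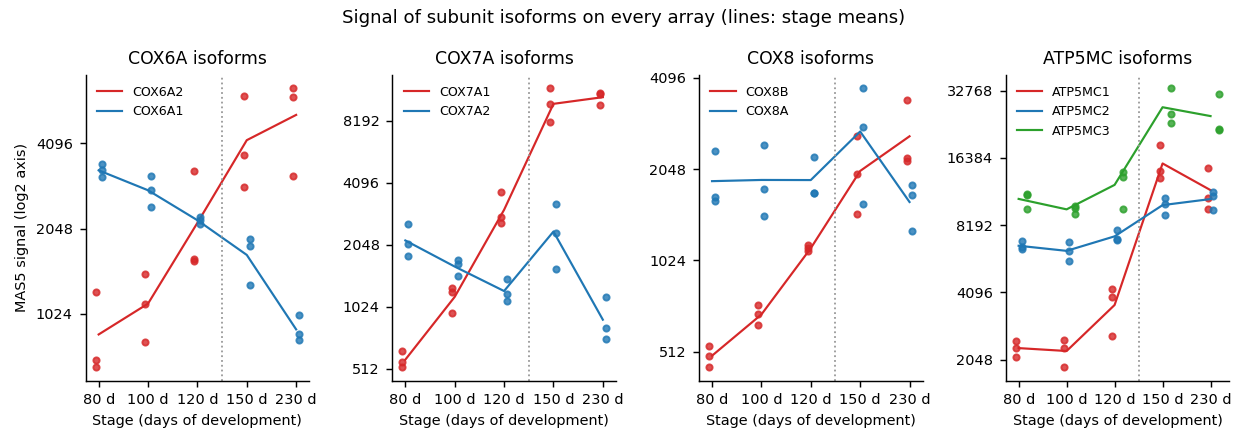
MAS5 signal of isoforms of the COX6A, COX7A and COX8 subunits and of the ATP synthase c ring on every array at the 5 stages (log2 axis, lines join stage means, birth dotted). The red isoform of each panel lies higher on every postnatal array than at 80 d, and the heights of different probe sets are not comparable.

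Because a difference of 2 probe sets within an array does not depend on the scaling, the isoforms were also compared that way, over 5 of 7 planned pairs. COX7A1 minus COX7A2 was -1.91 ± 0.18 (80 d, mean log2 difference ± SD, n = 3), -0.50 ± 0.09 (100 d), 1.30 ± 0.13 (120 d), 2.10 ± 0.69 (150 d) and 3.61 ± 0.46 (230 d). The fetal rise of 3.21 was larger than the step of 0.80 across birth, where the newborn and 120 d arrays overlapped. Postnatal arrays were 3.23 above fetal arrays (6 against 9, two-sided exact permutation test, adjusted p = 0.000999 over the 5 pairs). COX6A2 minus COX6A1 was -1.98 ± 0.56 (80 d), -0.12 ± 0.57 (120 d), 1.29 ± 0.60 (150 d) and 2.45 ± 0.56 (230 d). All 6 postnatal arrays lay above all 9 fetal arrays, by 3.03 on average (exact permutation, adjusted p = 0.000333, where the unadjusted p of 0.00020 is the smallest it can give). With the dimmer COX6A1 probe set the same difference was -0.68 (exact permutation, adjusted p = 0.366), so this result rests on the brighter COX6A1 probe set.

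COX8B minus COX8A was -1.89 ± 0.32 (80 d), -0.74 ± 0.26 (120 d), -0.38 ± 0.65 (150 d) and 0.70 ± 0.64 (230 d). The newborn arrays overlapped those of 120 d, and the postnatal mean was 1.52 above the fetal mean (exact permutation, adjusted p = 0.000999). With the dimmer COX8B probe set it was 0.20 above (exact permutation, adjusted p = 0.508). With the brightest probe set of each gene, the fetal stages of all 3 families already differed by 1.16 to 3.21 between 80 d and 120 d. An exact test of 3 arrays against 3 cannot give a p below 0.1 there. Over this span the dimmer COX6A1 probe set had an estimate of 2.36 and the dimmer COX8B probe set one of 0.08. The fetal shift in the COX6A and COX8 families therefore rests on the brighter probe sets. Since stages rather than birth alone separate these groups, the postnatal against fetal contrast does not date the shift to birth.

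**Figure D4:**
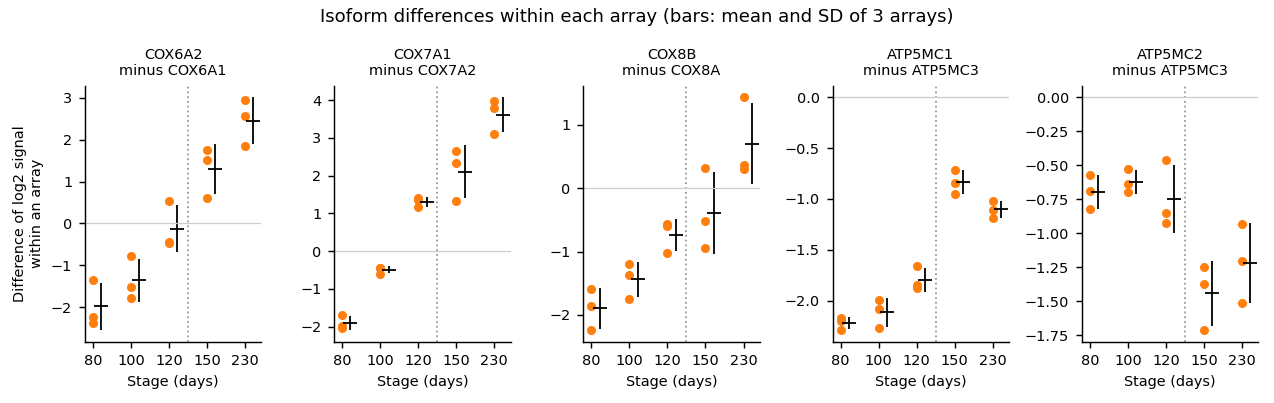
Difference of log2 signal between isoforms within each array (points, 1 per animal) at the 5 stages, with the mean and SD of 3 arrays beside them and birth as a dotted line. With the brightest probe set of each gene, the COX6A, COX7A and COX8 differences climb from 80 d on. Those of the c-ring genes to ATP5MC3 lie at -2.29 to -1.66 (ATP5MC1) and -0.93 to -0.46 (ATP5MC2) in the fetus. After birth they lie at -1.18 to -0.71 and -1.71 to -0.93, in that order.

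The complex IV genes outside the COX6A, COX7A and COX8 families had estimates above 0 across birth, and all but COX6B2 passed in limma. COX5A measured 5665, 4823 and 5350.5 (80 d), 6062, 5480.2 and 4653 (100 d), 8826, 9029 and 7861 (120 d), 27229, 19158 and 24397 (150 d) and 17995, 20199.9 and 24955 (230 d). Newborn arrays were more than 2 times the brightest fetal array, and COX5A rose by 1.45 ± 0.19 across birth (adjusted p = 0.000335). COX5B, which binds zinc, had signals of 4897, 4338 and 4836 (80 d), 5658, 4418 and 4045 (100 d), 7077, 7228 and 5628 (120 d), 21500.5, 16339 and 18443 (150 d) and 16431, 18171 and 22549.7 (230 d). Every postnatal array was more than 2 times as bright as any fetal array, and COX5B rose by 1.50 ± 0.20 (adjusted p = 0.000324). COX4I1, the widely expressed form of the regulatory subunit IV, measured 3707, 4038 and 4707 (80 d), 4467, 5775 and 4280.3 (100 d), 6898, 7446 and 7345 (120 d), 12102, 11812 and 15522 (150 d) and 11428, 15191 and 15725 (230 d). The 120 d arrays lay above those of 100 d, and all postnatal arrays above both. Its rise of 0.85 ± 0.20 across birth (adjusted p = 0.0083) passed in 3 of the 15 fits that left out 1 array.

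COX7C measured 3699, 4484 and 4510.5 (80 d), 4054, 4802 and 4689.6 (100 d), 5726, 6264 and 4505 (120 d), 14812, 11215 and 14119 (150 d) and 11649, 14627 and 12746 (230 d). Postnatal arrays lay clear of the fetal ones, and COX7C rose by 1.29 ± 0.19 (adjusted p = 0.000622). COX6C had signals of 2794, 5206 and 6096 (80 d), 4126, 5611 and 5270.5 (100 d), 6286, 9078 and 7019 (120 d), 16245, 14521 and 17238 (150 d) and 16814, 17781 and 17116 (230 d). The first array of 80 d was low for its stage, and the postnatal arrays were all above the fetal range. The rise of COX6C across birth, 1.11 ± 0.26 (adjusted p = 0.00983), passed in 2 of the 15 fits that left out 1 array. COX6B2, known as the testis isoform of COX6B, was dim, with signals of 37, 47.7 and 80.1 (80 d), 60.2, 50.1 and 53.2 (100 d), 61.1, 97.2 and 39.9 (120 d), 156, 148 and 153 (150 d) and 140.3, 146 and 193 (230 d). The postnatal arrays lay above every fetal array. COX6B2 missed the threshold across birth (1.30 ± 0.32, adjusted p = 0.0123) and rose by 1.35 ± 0.32 from 120 d to 230 d (adjusted p = 0.00837), a call held in 3 of the 15 fits that left out 1 array.

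In complex V every one of the 17 genes had all postnatal arrays above all fetal arrays. The catalytic F1 head consists of alternating alpha and beta subunits around a gamma stalk. ATP5F1A (alpha) measured 10790.1, 8996 and 9960.4 (80 d), 9974, 9959 and 8895 (100 d), 14319.6, 12287 and 10184 (120 d), 27268, 18525 and 20511 (150 d) and 24277, 21559.8 and 35386 (230 d). The third array of 230 d was the brightest, and no postnatal array came below 18525. ATP5F1A missed the threshold across birth (0.84 ± 0.22, adjusted p = 0.0172) and rose by 1.12 ± 0.22 from 120 d to 230 d (adjusted p = 0.00308), a call lost without the second or the third array of 120 d or the third of 230 d (adjusted p 0.0111 to 0.0163). ATP5F1B (beta, the catalytic subunit) had signals of 5197, 5261 and 5664 (80 d), 5694, 6074 and 5875 (100 d), 8804, 9061 and 6671 (120 d), 20094, 17029 and 17648 (150 d) and 13818, 16078 and 18666 (230 d). No postnatal array came below 13818, and ATP5F1B rose by 1.17 ± 0.18 (adjusted p = 0.000694). A dimmer ATP5F1B probe set had an estimate of 0.79 (adjusted p = 0.0877). ATP5F1C (gamma, the rotating shaft) measured 6046, 5889 and 6235 (80 d), 7317, 6125 and 6189 (100 d), 12446, 9609 and 8407 (120 d), 21522, 21744 and 21502 (150 d) and 20065, 20079 and 20615 (230 d). The 3 newborn arrays were nearly equal, and the gene rose by 1.11 ± 0.17 (adjusted p = 0.00075).

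ATP5F1D (delta, at the foot of the shaft) measured 1459, 1358 and 1413 (80 d), 1771, 1606 and 1553 (100 d), 2219, 2574 and 2356 (120 d), 6643, 5351 and 4049 (150 d) and 3982, 4244 and 5003 (230 d). The fetal stages stepped up, and postnatal arrays lay above all of them. ATP5F1D rose by 1.14 ± 0.19 across birth (adjusted p = 0.00136), while a dimmer probe set of the gene, at 299 ± 48.1 at 120 d and 329 ± 206 at 150 d, had an estimate of -0.13. ATP5F1E (epsilon) measured 4229, 6461 and 6841 (80 d), 6224, 6854 and 5876 (100 d), 6754, 7813 and 6466 (120 d), 16069.8, 15763 and 17442 (150 d) and 8658, 10259.9 and 15251 (230 d). Newborn arrays were the brightest, and those of 230 d lay below them without overlap. The birth change of ATP5F1E was 1.23 ± 0.23 (adjusted p = 0.00288), lost without the first or the third array of 120 d or the third of 150 d (adjusted p 0.0104 to 0.0145), and the estimate from 150 d to 230 d was -0.57 ± 0.23 (adjusted p = 0.172). ATP5IF1, an inhibitor that blocks ATP hydrolysis by the F1 head, had signals of 2700.3, 2384 and 2134 (80 d), 2402, 3155 and 3075 (100 d), 3920.2, 4424 and 2474 (120 d), 11154, 7757 and 8933 (150 d) and 6813, 7995 and 5251 (230 d). The newborn arrays were again mostly above those of 230 d, though the 2 stages overlapped. ATP5IF1 rose by 1.39 ± 0.25 across birth (adjusted p = 0.00208).

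The rotor ring of the membrane part is built from c subunits, and ATP5MC1, ATP5MC2 and ATP5MC3 (formerly ATP5G1, ATP5G2 and ATP5G3) encode the same mature c subunit. ATP5MC1 measured 2488, 2112 and 2315 (80 d), 2506, 2301 and 1904 (100 d), 3919.7, 4249 and 2619 (120 d), 18700, 14385 and 13353 (150 d) and 9659.5, 10867 and 14742 (230 d). The newborn arrays were more than 3 times as bright as any fetal array. ATP5MC1 rose 4.35-fold across birth (2.12 ± 0.23 on the log2 scale, adjusted p = 0.000109), the largest birth change in complex V. ATP5MC2 had signals of 6937, 6539 and 6398 (80 d), 6917, 6268 and 5669 (100 d), 7821, 7069 and 7008 (120 d), 10241, 9112 and 10864 (150 d) and 11518, 9566 and 11088 (230 d). Its postnatal arrays were above the fetal ones by a small margin, and it passed in no interval (across birth 0.46 ± 0.16, 95% interval 0.12 to 0.80, adjusted p = 0.0509). ATP5MC3 measured 11179.5, 9719.7 and 11315 (80 d), 9955, 9776 and 9196 (100 d), 14132, 13449.6 and 9648 (120 d), 33556, 23608 and 25766 (150 d) and 21936, 22034 and 31726 (230 d). Its fetal stages overlapped, and it rose by 1.16 ± 0.21 across birth (adjusted p = 0.00236), a call lost without the third array of 120 d (adjusted p = 0.013).

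Within an array, the differences between the 3 c-ring genes were not the same before and after birth. ATP5MC1 minus ATP5MC3 was -2.22 ± 0.06 (80 d), -1.80 ± 0.12 (120 d), -0.84 ± 0.12 (150 d) and -1.10 ± 0.08 (230 d). It had already moved by 0.42 from 80 d to 120 d without overlap of those stages. All 6 postnatal arrays lay above all fetal arrays, by 1.08 (exact permutation, adjusted p = 0.000333). ATP5MC2 minus ATP5MC3 was -0.69 ± 0.13 (80 d), -0.75 ± 0.25 (120 d), -1.44 ± 0.24 (150 d) and -1.22 ± 0.29 (230 d). The postnatal arrays lay below all fetal arrays, by 0.64 on average (exact permutation, adjusted p = 0.000333). The 2 ranges nearly touched, at -0.9294 on the first array of 230 d and -0.9280 on the second of 120 d. Across birth alone the steps were 0.96 and -0.70, each without overlap, and an exact test of 3 against 3 gave its smallest p of 0.1 for both.

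The peripheral stalk holds the F1 head still while the rotor turns. ATP5PB measured 5780.5, 5686 and 5456 (80 d), 5765, 5414 and 5899 (100 d), 8709.5, 8023 and 5602 (120 d), 17458, 15427 and 14779 (150 d) and 12398, 13389.7 and 17021 (230 d). Fetal stages overlapped, and ATP5PB rose by 1.12 ± 0.19 across birth (adjusted p = 0.00172). ATP5PD had signals of 4437, 3960.5 and 4396 (80 d), 4205, 3792 and 3378 (100 d), 5664, 5717 and 5201 (120 d), 16756, 12356 and 12167 (150 d) and 11781, 11006 and 14440.2 (230 d). Newborn arrays were more than 2 times all fetal arrays, and ATP5PD rose by 1.30 ± 0.18 (adjusted p = 0.000438). ATP5PF (coupling factor 6) measured 3862, 3684 and 4101 (80 d), 4338, 3307 and 3013 (100 d), 5669, 6164 and 4466 (120 d), 13639, 10805 and 13684 (150 d) and 10338, 11901 and 17931 (230 d). The third array of 230 d was the brightest, and the rise across birth was 1.23 ± 0.23 (adjusted p = 0.00269), lost without the third array of 120 d or of 150 d (adjusted p = 0.0152 and 0.0102). ATP5PO, the oligomycin sensitivity conferring protein, had signals of 3482, 4528 and 4935 (80 d), 6167, 5364 and 2579.8 (100 d), 9100.2, 8393 and 6606 (120 d), 17173, 13119.5 and 15122 (150 d) and 10638, 12229.5 and 14807 (230 d). The 3 arrays of 100 d were far apart, and no interval passed (across birth 0.92 ± 0.30, adjusted p = 0.0431).

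Small membrane subunits link ATP synthase into dimers. ATP5ME measured 1129.9, 1208 and 1371 (80 d), 1480.5, 1529 and 1350.1 (100 d), 1904, 2183 and 1991 (120 d), 5526, 5471 and 5229 (150 d) and 5361, 6683 and 5751 (230 d). The replicates of 120 d and 150 d were tight, and ATP5ME rose by 1.42 ± 0.16 across birth (adjusted p = 0.000105). ATP5MF had signals of 2195, 2435 and 2654 (80 d), 2190.2, 2930.2 and 2803 (100 d), 3122, 4432 and 3511 (120 d), 9009.7, 6899.9 and 8537 (150 d) and 7314, 9327 and 8597 (230 d). Postnatal arrays lay clear of the fetal ones, and the rise was 1.15 ± 0.20 (adjusted p = 0.00163). ATP5MG measured 9683, 7316 and 8624 (80 d), 8394, 7352 and 6757 (100 d), 10666, 9972 and 9964 (120 d), 21650.5, 15544 and 18597 (150 d) and 20163, 17279 and 25539.8 (230 d). Its 3 arrays of 120 d were close, the newborn ones spread, and the rise of 0.85 ± 0.20 (adjusted p = 0.00866) passed in 3 of the 15 fits that left out 1 array. A dimmer ATP5MG probe set had estimates of 0.53 across birth (adjusted p = 0.191) and -0.033 from 120 d to 230 d (adjusted p = 0.942). ATP5MJ had signals of 1446, 1695 and 2020 (80 d), 1456, 1702 and 1592 (100 d), 1842, 2061 and 1814 (120 d), 4377, 3934 and 4224 (150 d) and 4197, 5208 and 6720.4 (230 d). The 230 d arrays ranged widely above the fetal level, and ATP5MJ rose by 1.13 ± 0.20 across birth (adjusted p = 0.00169) and by 1.47 ± 0.20 from 120 d to 230 d (adjusted p = 0.000236).

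Of the 31 birth calls, 23 held in all 15 fits that left out 1 array and 8 were lost at least once (ATP5F1E, ATP5MC3, ATP5MG, ATP5PF, COX4I1, COX6C, SDHA and SDHD). From 120 d to 230 d 21 of the 34 calls held in all 15. Of the 10 further probe sets of member genes, 7 passed the filter on low signals, and their lowest adjusted p over the 6 intervals in limma was that of COX6A1 (0.0127).

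Other genes of the same pathway gave a setting for these values. The counts that follow are for 120 d to 150 d, where 4.41% of all kept probe sets rose and 6.77% fell. Of 37 complex I subunits 31 rose and none fell (median 1.49), the largest changes being those of NDUFV3 (2.61) and NDUFB9 (2.13). A list of carriers and porins that exchange ATP, ADP and phosphate also held the mitochondrial creatine kinase CKMT2, which is neither. In this list 6 of 9 rose and 1 fell (median 1.22). The largest changes were those of CKMT2 (3.52) and the muscle adenine nucleotide carrier SLC25A4 (1.76). SLC25A5, a carrier of other tissues that was named after its value was seen, fell by 1.64. Electron carriers and coenzyme Q synthesis genes (11 tested of 17 listed) had 5 of 11 higher (median 0.88), among them COQ10A (3.05) and COQ5 (1.90). Of 41 listed assembly factors of complexes II to V 22 were on the array, and 5 of the 19 tested rose (median 0.68). TMEM70, an ATP synthase assembly factor, was at 1.61 and COX10, which makes heme O, at 1.30. Of 15 markers of mitochondrial mass 10 rose (median 1.22), among them the cristae protein IMMT (2.24) and citrate synthase, CS (1.88). Of 18 listed transcriptional regulators of respiratory genes 11 were on the array. None of the 10 tested passed in limma (median -0.04, 4 with an unadjusted p below 0.05). Lactate and glycolysis genes had 5 of 13 higher (median 0.92), led by PGK1 (2.59) and GPI (1.85).

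Markers of other cell types moved over the same interval, where 4.41% of all kept probe sets rose and 6.77% fell. The 5 erythroid markers on the array summed to 12397 to 13018 at 120 d and to 284 to 592 at 150 d, and 2 of the 4 tested fell, HBB (log2 fold change -5.71) and ALAS2 (-3.94). The 5 endothelial markers summed to 5106 to 6146 and then to 1663 to 3148, and 3 fell, led by CDH5 (-1.47) and TEK (-1.38). Slow fibre markers summed to 53498 to 65078 and then to 97864 to 114958, with MYL3 (4.43) and ATP2A2 (1.38) higher among the 6 tested. Fast fibre markers summed to 75468 to 98865 and then to 113218 to 173066, with ATP2A1 (1.18) higher among the 5 tested. White fat markers summed to 107 to 296 and then to 640 to 1163, with FABP4 (2.69) higher of 2 tested. Fibroblast markers summed to 63932 to 66721 and then to 43252 to 70357, and leukocyte markers to 228 to 291 and then to 191 to 235. Brown fat markers summed to at most 92.1 on any array. Skeletal muscle markers had a median change of 0.64, and none of the 5 passed in limma (all 5 with an unadjusted p below 0.05). The part of these shifts in the changes of the respiratory subunits was not tested.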

How the data were processed

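Total RNA from LD muscle of 15 lambs (5 stages, 3 animals and 3 arrays each) was hybridised to the bovine Affymetrix array. The authors deposited a MAS5 signal intensity for each probe set and array, on a linear scale and scaled by array. The trimmed mean of every deposited array was close to 200 (200.06 to 200.09), so a change is relative to the overall brightness of an array. Symbols came from the platform annotation, and 13292 probe sets, before any filter, carried a single symbol.

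Signals (floor 0.1, reached by 2 values) were taken to log2, 112 control probe sets were left out, and a probe set was kept where 3 or more arrays reached a signal of 50. This filter stands in for detection calls. One mean per stage was fitted to all 15 arrays with limma 3.58.1 in R 4.3.3 (lmFit and eBayes, 10 residual degrees of freedom), with Benjamini-Hochberg adjustment over all 15998 kept probe sets within each of 6 intervals, and called at an adjusted p below 0.01. Isoform differences were tested by exact two-sided permutation, adjusted over 5 pairs, in Python 3.11.15 with numpy 2.4.6. The scripts were tested on simulated data. Each array is 1 animal, and the number of arrays limits the precision. Values were given for complex II, for isoform families, for the 3 largest birth changes in each of the other complexes, and for members called in any other interval or called lower in any. ATP5F1E, ATP5PO and UQCRH fall outside this rule and were chosen after their values were seen. For other lists, the 2 members with the largest change were named. CYCS was not analysed here. The members, lists and alternatives were chosen with earlier results of these data known. Alternatives covered the scaling, offset, filter, variance options, arrays fitted, probe set and each array left out.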

Additional observations from a re-analysis of the deposited data

How the results depend on the processing

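From 120 d to 150 d the 31 calls became 14 with quantile normalization, 6 when scaled to the hybridisation controls and 0 with the 6 arrays alone. The shares of all probe sets called were 9.36%, 24.6% and 0.0125%, against 11.2% in the main fit. From 120 d to 230 d the 34 became 17, 5 and 5 in those settings. Of all probe sets 13.9%, 36.8% and 2.86% were called there, against 14.2% in the main fit. For the other intervals the share of all probe sets called is in brackets. From 150 d to 230 d the single call (2.03%) became 0 with quantile normalization (1.59%) and without the 100 brightest probe sets in the scaling (1.96%). It also became 0 with no filter (0.496%), with 6 arrays alone (0%) and with the replicate block (1.60%). It became 2 with the stricter filter (4.01%) and with the trend and robust options (3.70%). From 80 d to 120 d the 4 (1.31%) became 2 with the hybridisation controls (1.01%) and with no filter (0.529%). They became 10 with the trend and robust options (2.67%) and 1 with 6 arrays alone (0.425%). From 100 d to 120 d, 1 was called with array medians set equal (0.0813%), an offset of 16 (0.119%) and the stricter filter (0.121%). With the trend and robust options 1 was called from 100 d to 120 d (0.206%) and 1 from 80 d to 100 d (0.244%). A moderated F-statistic over all stages called 40 members and 25.8% of probe sets. Nested F-statistics, added after the data were seen, called 8, 27, 39 and 5 members in the 4 neighbouring intervals in order, against 5.23%, 7.03%, 20.7% and 10.3% of probe sets.

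When 1 array was left out the counts ran from 24 to 30 (120 d to 150 d), 22 to 33 (120 d to 230 d), 0 to 2 (150 d to 230 d) and 1 to 5 (80 d to 120 d), and stayed at 0 in the others. Isoform differences then ran from 1.02 to 1.12 (ATP5MC1 minus ATP5MC3), -0.72 to -0.57 (ATP5MC2 minus ATP5MC3), 2.81 to 3.28 (COX6A2 minus COX6A1), 3.01 to 3.53 (COX7A1 minus COX7A2) and 1.26 to 1.74 (COX8B minus COX8A). With 120 d against 150 d alone they were 0.96, -0.70, 1.41, 0.80 and 0.35 in that order, where 3 against 3 arrays cannot pass. With the dimmest probe set of a gene COX6A2 minus COX6A1 was -0.68 and COX8B minus COX8A 0.20, and with the mean of the kept probe sets 1.17 and 0.86.

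The median change of a complex minus that of all probe sets moved from 1.56 to 0.95 (complex II), 1.59 to 0.91 (complex III), 1.14 to 0.68 (complex IV) and 1.30 to 0.68 (complex V) with quantile normalization, and to 1.27 (complex III) with dimmest probe sets. Of single genes ATP5F1D (-0.13 from 120 d to 150 d), UQCRC2 (-0.069 from 80 d to 120 d), ATP5MG (-0.033 from 120 d to 230 d) and COX6A1 (1.90 from 120 d to 230 d) changed sign with the dimmest probe set, and ATP5F1D (-0.042 from 120 d to 230 d) with the hybridisation controls. The cause was not tested. Deviations from the stage mean were little correlated between arrays with the same replicate number. Of 30 such pairs 6 correlated above 0.1 (median 0.03, against -0.02 for pairs with different numbers). For 8 of 15 arrays the mean correlation was highest with arrays of their own number. Whether the numbers mark a batch was not tested. With the replicate block 31 members were called from 120 d to 150 d, 4 from 80 d to 120 d and 33 from 120 d to 230 d. Of all probe sets 10.6%, 1.08% and 13.8% were called, in that order. Isoform adjusted p in the exact permutation test stayed at 0.003 or below with this block.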

Other observations

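Among the other lists, EPAS1 (a hypoxia-responsive transcription factor) rose by 1.02 from 80 d to 120 d and by 0.99 from 150 d to 230 d on the log2 scale. HIF1A, its relative, fell by 1.12 from 150 d to 230 d, from a mean signal of 2384 to 1097. Of 13 lactate and glycolysis genes 6 rose from 80 d to 120 d in limma, against 0.931% of all kept probe sets, led by PGAM2 (1.81) and ENO3 (1.77). None of 15 mitochondrial mass markers passed in that interval (median -0.06), which is near the 1.31% of all probe sets called. CS had an estimate of 0.65 (limma adjusted p = 0.135). CKMT2, the mitochondrial creatine kinase of muscle, rose by 3.15 from 80 d to 120 d, from 164 to 1438 in mean signal, and COQ8A, which supports coenzyme Q synthesis, rose by 2.43, from 158 to 863. Of 37 complex I subunits 1 rose over the fetal span (median 0.58), near the 0.931% of all kept probe sets that rose.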
